A study of Homo sapiens with 10 samples.

Results

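The 10 genes described here form the core of the integrated stress response: the transcription factors ATF4 (ENSG00000128272), ATF3 (ENSG00000162772), DDIT3 (ENSG00000175197), CEBPB (ENSG00000172216) and CEBPG (ENSG00000153879), the feedback genes TRIB3 (ENSG00000101255) and PPP1R15A (ENSG00000087074), and the effectors CHAC1 (ENSG00000128965), SESN2 (ENSG00000130766) and ASNS (ENSG00000070669). They were picked by Ensembl gene ID from the 20289 genes with a footprint value. The rule itself uses no measured value, but the members were chosen with earlier results of these data known. Shares and medians of the 10 genes set beside those of all tested genes are therefore descriptions. Ribosome profiling, which sequences the short mRNA pieces that ribosomes shield from nuclease, was run on 10 libraries of 2 established human lines of pancreatic ductal adenocarcinoma, CFPAC-1 and PANC-1. CFPAC-1 was given 10 µM imidazole ketone erastin (IKE, a derivative of erastin; 2 libraries) or 0.1% DMSO (2 libraries). PANC-1 was given 1 µM IKE (4 libraries) or 0.1% DMSO (2 libraries). In every group dead cells and debris had been washed away and the surviving cells were lysed, so fewer cells of a type and less RNA per cell cannot be told apart in these bulk samples. The treatment label gives an exposure of 24 h, whereas the protocol for the footprint extract describes treatment on several consecutive days, and the exposure time is not settled here. No dose was used in both lines, so line and dose cannot be told apart wherever the lines are set against each other.

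The integrated stress response starts when kinases that sense amino acid shortage, misfolded protein or other stress phosphorylate the initiation factor eIF2. General translation then drops, while the mRNA of ATF4, which carries upstream reading frames in its leader, is translated more. ATF4 is a basic leucine zipper transcription factor that pairs with members of the C/EBP family and switches on genes of amino acid synthesis and transport, glutathione turnover and stress feedback. Erastin and its derivatives block the cystine importer system xc-, and CHAC1, a target of ATF4, is widely used as a transcript marker of that block. The integrated stress response is therefore often followed in cells under ferroptosis inducers, which kill by iron-dependent lipid peroxidation.

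A footprint value carries mRNA abundance and translation together, and no matched RNA-seq was used here to separate them. Whether footprints outside the coding sequence were counted is not given in the sources used here. That bears on any gene with upstream reading frames, ATF4, DDIT3 and PPP1R15A among them. Values are FPKM, which correct fragment numbers for gene length and library size. They do not correct for a few abundant genes that take a larger share of a library. The 10 most abundant genes held 8.51% of summed FPKM in PANC-1 DMSO replicate 1 and 23.1% in PANC-1 IKE replicate 4. Levels set against each other between genes or between libraries are therefore approximate. On the deposited build, GRCh38, the protein-coding gene ATF4 lies at chr22:39520559-39522686, CHAC1 at chr15:40953471-40956512, PPP1R15A at chr19:48872421-48876058 and ASNS at chr7:97851677-97928441 (RefSeq positions of GRCh38.p14).

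The promoters of the 10 genes were read from the RefSeq windows of GRCh38.p14 that run from 250 bases before a start site to 50 bases after it, and all 10 genes had at least 1 window (18 windows in all). The core of the C/EBP-ATF response element, TGATGNAA on either strand, lay in a window of 4 of the 10 genes (ATF3, CHAC1, CEBPG and ASNS), against 4.46% of all 27305 genes with a window. The cAMP response element TGACGTCA lay in a window of PPP1R15A alone among the 10, against 2.25% of all genes, and the AP-1 site TGACTCA in windows of DDIT3 alone, against 6.05%. The windows of 3 genes are shown because their footprints differed most from one line to the other or stood out within a line: CHAC1 and ASNS had the largest IKE effects in CFPAC-1, and PPP1R15A had the smallest p in PANC-1. Capitals mark the motif, each sequence runs 5′ to 3′ on the gene's own strand, and a match is a string of letters and not a measured binding site.
CHAC1, chr15:40953221-40953520, plus strand: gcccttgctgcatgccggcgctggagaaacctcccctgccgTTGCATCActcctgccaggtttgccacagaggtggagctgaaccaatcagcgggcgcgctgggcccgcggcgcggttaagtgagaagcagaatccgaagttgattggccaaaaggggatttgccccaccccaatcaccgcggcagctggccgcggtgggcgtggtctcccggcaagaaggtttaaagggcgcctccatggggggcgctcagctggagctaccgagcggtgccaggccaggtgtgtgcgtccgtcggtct
ASNS, chr7:97872359-97872658, minus strand: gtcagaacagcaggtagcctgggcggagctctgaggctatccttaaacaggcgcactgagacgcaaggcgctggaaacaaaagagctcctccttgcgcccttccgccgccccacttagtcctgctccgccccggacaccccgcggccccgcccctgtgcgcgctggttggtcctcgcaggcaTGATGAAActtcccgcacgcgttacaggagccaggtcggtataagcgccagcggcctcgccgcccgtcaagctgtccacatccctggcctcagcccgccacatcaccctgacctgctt
PPP1R15A, chr19:48872171-48872470, plus strand: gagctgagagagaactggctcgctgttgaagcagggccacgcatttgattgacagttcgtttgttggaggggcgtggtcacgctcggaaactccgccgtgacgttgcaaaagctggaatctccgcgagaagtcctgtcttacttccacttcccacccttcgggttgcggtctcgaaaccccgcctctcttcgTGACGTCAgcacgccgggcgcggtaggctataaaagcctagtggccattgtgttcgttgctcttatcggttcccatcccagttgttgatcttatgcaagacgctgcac
In CHAC1 the marked letters are the response element read from the other strand, with their first base at position -209 from the start site. In ASNS the first base of the motif is at position -68, and in PPP1R15A that of the cAMP response element is at position -58. The remaining matches began at -191 in ATF3, at -42 in the second window of CEBPG, and at -241 and -238 in the windows of DDIT3.

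Libraries of the lines differed in depth and in noise. Depth was not stated with the values, but the steps between low FPKM values gave relative depths of 0.915 to 1.17 in CFPAC-1 and 0.211 to 0.876 in PANC-1, with CFPAC-1 DMSO replicate 1 set to 1. PANC-1 IKE replicates 2, 3 and 4 stood apart from the other libraries: their 10 most abundant genes held 16.2%, 12.2% and 23.1% of summed FPKM, against 8.51% to 9.64% in the other 7. Noise was lower in CFPAC-1, with a median SD of residuals of 0.18 on the log2 scale, than in PANC-1, with 0.481. The labels call the replicates biological without saying what was separate, so p-values measure the spread between these libraries.

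**Figure D1:**
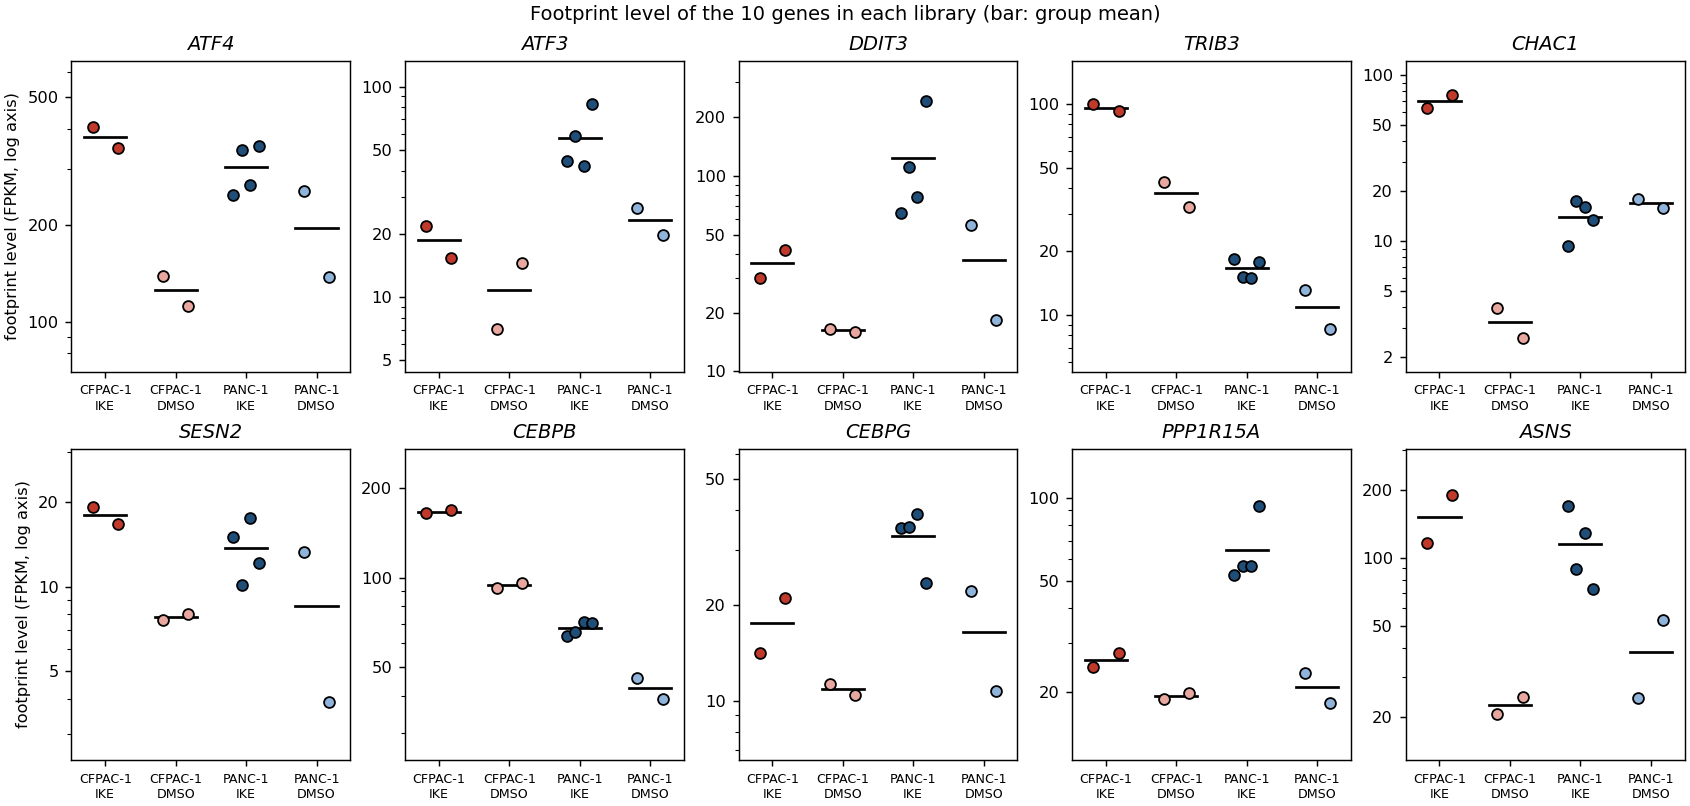
Footprint level (FPKM, log axis) of each of the 10 genes in each of the 10 libraries, grouped by line and treatment, with a bar at the group mean. In CFPAC-1 both IKE libraries lie above both DMSO libraries for all 10 genes, and in PANC-1 CHAC1 is the gene whose IKE mean (13.99 FPKM) lies below its DMSO mean (16.89 FPKM).

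In CFPAC-1, 10 µM IKE went with higher footprint levels of all 10 genes (log2 fold change above 0 for 47.1% of tested genes). CHAC1, which degrades glutathione, stood out with a 21.3-fold rise of its mean, followed by ASNS, which makes asparagine, at 6.78-fold and by ATF4 itself at 3.00-fold. TRIB3, a pseudokinase that restrains ATF4, and CEBPB, a C/EBP partner of ATF4, also rose. These 5 genes were called higher at an adjusted p under 0.05 (limma), where 0.267% of the 13125 tested genes were called higher and 0.0838% lower. The median log2 fold change was 1.09 over the 10 genes and -0.01 over all tested genes. All 10 genes passed the filter of 1 FPKM on the mean, and IKE and DMSO libraries did not overlap for any of them, against 20.2% of tested genes with both IKE libraries above both DMSO libraries.

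Among the transcription factors, ATF4 reached 405 and 349 FPKM with IKE in CFPAC-1, against 139 and 112 FPKM in the DMSO libraries. Both IKE libraries were well above both DMSO libraries, and the log2 fold change was 1.58 ± 0.18 (SE; 95% confidence interval 1.20 to 1.97, limma adjusted p = 0.0025). With IKE it lay at percentile 95.4 of tested genes by level, against percentile 86.2 with DMSO. CEBPB, which pairs with ATF4 on composite C/EBP-ATF elements, was at 164 and 169 FPKM with IKE and 92.1 and 96.2 FPKM with DMSO. Its replicates differed 1.03-fold with IKE and 1.04-fold with DMSO, and the log2 fold change of 0.82 ± 0.13 passed the test (limma adjusted p = 0.0206).

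DDIT3, which encodes CHOP, a transcription factor tied to cell death in lasting stress, was at 29.9 and 41.6 FPKM with IKE and 16.5 and 15.9 FPKM with DMSO. The groups were apart, but the effect of 1.08 ± 0.30 on the log2 scale did not pass (limma adjusted p = 0.194). CEBPG, another dimer partner of ATF4, was at 14.2 and 21.0 FPKM with IKE and 11.3 and 10.4 FPKM with DMSO, a log2 fold change of 0.62 ± 0.22 (limma adjusted p = 0.311). Its 2 IKE libraries differed more from each other than its DMSO libraries did, and the effect was 0.35 without IKE replicate 2 and 0.89 without IKE replicate 1. ATF3, an early stress-induced factor of the ATF family, was at 21.8 and 15.4 FPKM with IKE and 7.06 and 14.6 FPKM with DMSO. Its lower IKE library was barely above its higher DMSO library, and its effect of 0.79 ± 0.29 on the log2 scale did not pass (limma adjusted p = 0.316). That effect was 0.31 without CFPAC-1 DMSO replicate 1 and 1.26 without DMSO replicate 2.

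The feedback genes TRIB3 and PPP1R15A moved by different amounts in CFPAC-1. TRIB3 was at 99.9 and 92.2 FPKM with IKE, against 42.9 and 32.6 FPKM with DMSO, a log2 fold change of 1.34 ± 0.18 (limma adjusted p = 0.00928). PPP1R15A encodes GADD34, a subunit of the phosphatase that removes the phosphate from eIF2 and so ends the response. It was at 24.6 and 27.6 FPKM with IKE and 18.9 and 19.8 FPKM with DMSO, which do not overlap but lie close together. Its log2 fold change of 0.41 ± 0.17 was the lowest of the 10 and did not pass (limma adjusted p = 0.371).

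Of the 3 effectors, CHAC1 reached 63.02 and 75.9 FPKM with IKE in CFPAC-1, against 3.93 and 2.60 FPKM with DMSO. By level it lay at percentile 78 of tested genes with IKE, against percentile 15.8 with DMSO. Its log2 fold change of 4.06 ± 0.21 (95% confidence interval 3.60 to 4.51, limma adjusted p = 9.34e-06) ranked 1 by size and by p among 13125 genes. ASNS was at 116 and 189 FPKM with IKE and 20.6 and 24.4 FPKM with DMSO, a log2 fold change of 2.67 ± 0.26 (limma adjusted p = 0.00129). Its IKE libraries differed 1.63-fold from each other, and both were far above the DMSO libraries. SESN2, a leucine sensor that restrains mTORC1 and protects against oxidants, was at 19.2 and 16.6 FPKM with IKE and 7.64 and 7.97 FPKM with DMSO, a log2 fold change of 1.10 ± 0.23 that did not pass (limma adjusted p = 0.102).

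The calls in CFPAC-1 depend on how the spread was shared. The model gave 1 variance weight to each line, a choice made with earlier results of these data known. In simulated data with 200 genes changed 2-fold, 46 of its 168 calls in CFPAC-1 were false. For CFPAC-1 fitted on its own 6 of 52 were false, so the adjusted p-values of the weighted model are too small for this line. CFPAC-1 fitted on its own called CHAC1 (limma adjusted p = 0.00924), ASNS (0.0345) and ATF4 (0.0348), but not TRIB3 (0.0957) or CEBPB (0.124). On the 13125 genes of the shared model that separate fit called 0 genes (CHAC1 0.197), and a shared model with no weights called CHAC1 alone. TRIB3 lost its call without CFPAC-1 DMSO replicate 2 (0.0989), IKE replicate 1 (0.0766) or IKE replicate 2 (0.0604), and CEBPB lost its call without any 1 of the 4 CFPAC-1 libraries (0.0912 to 0.16). Removing PANC-1 libraries also moved calls, because they enter the shared spread: SESN2 gained a call without DMSO replicate 2 (0.0488), TRIB3 (0.0501) and CEBPB (0.0648) lost theirs without IKE replicates 2 and 4, and ATF4 (0.0814) and ASNS (0.0685) lost theirs too without IKE replicates 2, 3 and 4. CHAC1 kept its call in each fit that left out libraries.

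**Figure D2:**
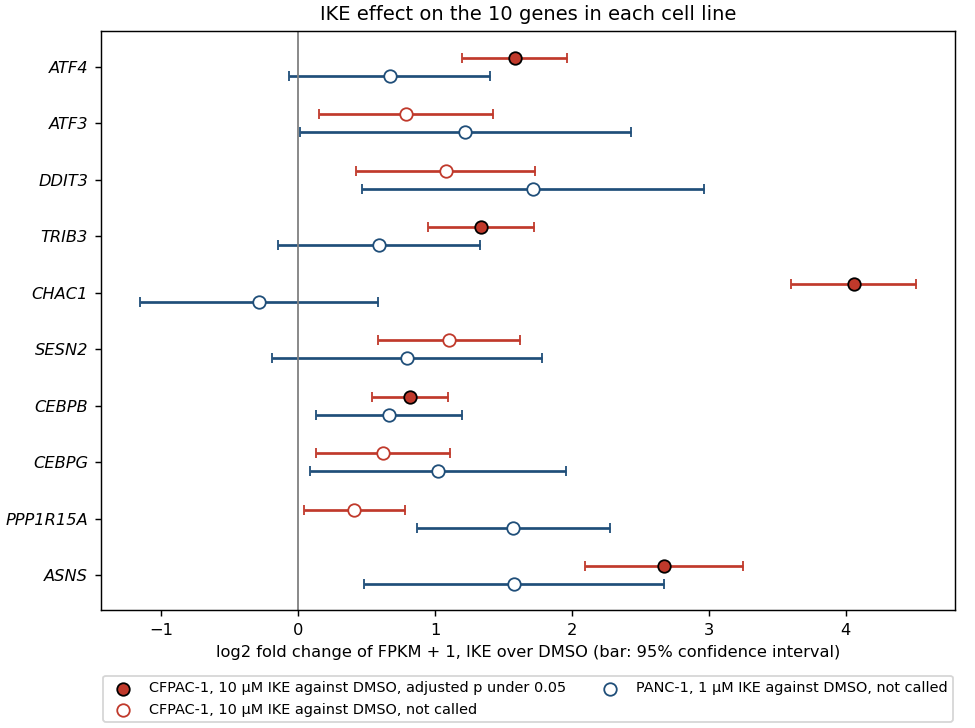
Log2 fold change of FPKM + 1, IKE over DMSO, of each gene in CFPAC-1 (10 µM IKE) and PANC-1 (1 µM IKE), with 95% confidence intervals from limma and filled points where the adjusted p was under 0.05. CHAC1 is the gene whose intervals are farthest apart, 3.60 to 4.51 in CFPAC-1 and -1.16 to 0.59 in PANC-1, and PPP1R15A is the other gene whose 2 intervals do not overlap, with PANC-1 higher.

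In PANC-1, 1 µM IKE went with higher mean footprint levels of 9 of the 10 genes (log2 fold change above 0 for 47.9% of tested genes), and CHAC1 was the exception. PPP1R15A, DDIT3 and ASNS had the largest differences, 2.97-fold to 3.32-fold in their means. None of the 10 genes was called, and neither was any of the 13125 tested genes (limma, 0%). In simulated data this fit recovered 0 of 200 genes changed 2-fold in PANC-1 and 127 of 200 changed 4-fold. In CFPAC-1 it recovered 122 and 197 of 200. The lack of calls in PANC-1 therefore does not show a lack of response, nor a weaker one than in CFPAC-1. At an unadjusted p under 0.05 there were 610 genes higher (4.65%) and 819 lower (6.24%), and 6 of the 10 genes were among the higher ones: ATF3, DDIT3, CEBPB, CEBPG, PPP1R15A and ASNS. All 4 IKE libraries lay above both DMSO libraries for 7 of the 10 genes, against 10.2% of tested genes, with ATF4, CHAC1 and SESN2 overlapping. The median log2 fold change was 0.91 over the 10 genes and -0.02 over all tested genes.

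PPP1R15A was at 52.8, 57, 56.8 and 93.4 FPKM in replicates 1 to 4 of PANC-1 IKE, and at 23.3 and 18.2 FPKM in the DMSO libraries. Even its lowest IKE library was far above its highest DMSO library. The log2 fold change was 1.57 ± 0.32 (95% confidence interval 0.87 to 2.28), ranked 17 by p of 13125 genes and had a limma adjusted p of 0.315.

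DDIT3 was at 64.8, 111, 78.0 and 241 FPKM in the same IKE replicates of PANC-1, against 56.2 and 18.3 FPKM with DMSO. The lowest IKE library was only slightly above the higher DMSO library, while replicate 4 was far above the rest. The log2 fold change was 1.71 ± 0.57 (limma adjusted p = 0.392), with 0.93 without DMSO replicate 2 and 2.50 without DMSO replicate 1. ATF3 was at 44.5, 58.2, 42.1 and 82.9 FPKM with IKE and 26.5 and 19.9 FPKM with DMSO, a log2 fold change of 1.22 ± 0.55 (limma adjusted p = 0.451). As for PPP1R15A and DDIT3, replicate 4 was the highest of its IKE libraries.

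ATF4 itself was at 249, 342, 267 and 353 FPKM with IKE in PANC-1, against 255 and 138 FPKM with DMSO. IKE replicate 1 lay just below DMSO replicate 1, so the groups overlapped, and the log2 fold change of 0.67 ± 0.33 had an interval that includes 0 (-0.07 to 1.41, limma adjusted p = 0.480). Without DMSO replicate 1 it was 1.11, and without DMSO replicate 2 it was 0.23. Among its partners, CEBPB was at 63.7, 65.4, 70.8 and 70.5 FPKM with IKE and 45.9 and 38.9 FPKM with DMSO. Its IKE libraries were the closest together of the 10 genes in this line. Its log2 fold change was 0.66 ± 0.24 (limma adjusted p = 0.399). CEBPG was at 35.1, 35.5, 38.9 and 23.5 FPKM with IKE and 22.3 and 10.8 FPKM with DMSO, a log2 fold change of 1.02 ± 0.42 (limma adjusted p = 0.421), and here replicate 4 was the lowest IKE library. The CEBPG effect was 0.53 without DMSO replicate 2 and 1.51 without DMSO replicate 1.

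ASNS was at 169, 89.5, 129 and 72.9 FPKM with IKE in PANC-1, against 24.2 and 53.3 FPKM with DMSO. The groups did not overlap, and the log2 fold change was 1.58 ± 0.50 (limma adjusted p = 0.388). TRIB3 was at 18.5, 15.2, 14.96 and 17.8 FPKM with IKE and 13.2 and 8.59 FPKM with DMSO, a log2 fold change of 0.59 ± 0.33 (limma adjusted p = 0.530). SESN2 was at 15.1, 10.2, 17.6 and 12.1 FPKM with IKE and 13.2 and 3.88 FPKM with DMSO, so DMSO replicate 1 lay inside the range of the IKE libraries (log2 fold change 0.79 ± 0.45, limma adjusted p = 0.529). All 3 effects varied with the choice of control, SESN2 the most, while that of ASNS stayed at 1.02 or more. Without DMSO replicate 2 the log2 effect was nearly gone for SESN2 (0.022) and was 0.31 for TRIB3 and 2.13 for ASNS. Without DMSO replicate 1 it was 1.57 for SESN2, 0.87 for TRIB3 and 1.02 for ASNS.

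CHAC1 was at 9.38, 17.3, 15.96 and 13.3 FPKM with IKE in PANC-1, against 17.97 and 15.8 FPKM with DMSO. No IKE library was above DMSO replicate 1, and 2 of them were above DMSO replicate 2. The log2 fold change was -0.29 ± 0.40, with an interval of -1.16 to 0.59 (limma adjusted p = 0.815), and it was -0.12 without IKE replicate 1, the lowest library. The upper limit of that interval is below the lower limit of 3.60 in CFPAC-1.

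The effects of the lines were then tested against each other, as the effect in CFPAC-1 minus that in PANC-1, with line and dose changing together. CHAC1 was the only one of the 10 genes whose difference passed, where 0.0229% of tested genes were called, 0.0152% with a higher effect in CFPAC-1 (2 genes) and 0.00762% with a lower one (1 gene). At an unadjusted p under 0.05, 2 of the 10 genes had a higher effect in CFPAC-1 (7.28% of tested genes) and 1 had a lower one (5.21%). The difference was 4.34 ± 0.45 on the log2 scale (95% confidence interval 3.36 to 5.33, limma adjusted p = 0.00706). The call was lost without CFPAC-1 IKE replicate 2 (0.0512), PANC-1 DMSO replicate 1 (0.14) or PANC-1 DMSO replicate 2 (0.121), while the difference stayed between 4.12 and 4.57 in the 10 fits that left out a library. It was also lost without PANC-1 IKE replicates 2 and 4 (4.49, 0.0622) and without replicates 2, 3 and 4 (4.84, 0.929). PPP1R15A had a difference of -1.16 ± 0.36 (interval -1.96 to -0.36, limma adjusted p = 0.277), the lowest of the 10 and on the side of PANC-1. ATF4 had 0.91 ± 0.38 (interval 0.08 to 1.74, adjusted p = 0.360), on the side of CFPAC-1.

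The differences of the other 7 genes had intervals that include 0. They were 1.10 (-0.14 to 2.33) for ASNS, 0.75 (-0.09 to 1.58) for TRIB3, 0.31 (-0.81 to 1.42) for SESN2 and 0.15 (-0.45 to 0.75) for CEBPB. On the side of PANC-1 they were -0.40 (-1.45 to 0.65) for CEBPG, -0.43 (-1.80 to 0.93) for ATF3 and -0.64 (-2.04 to 0.77) for DDIT3. These intervals are wide, and a p that missed the threshold does not show equal responses. IKE libraries lay above DMSO libraries with no overlap in both lines for 7 of the 10 genes, against 219 of 13125 tested genes (1.67%).

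**Figure D3:**
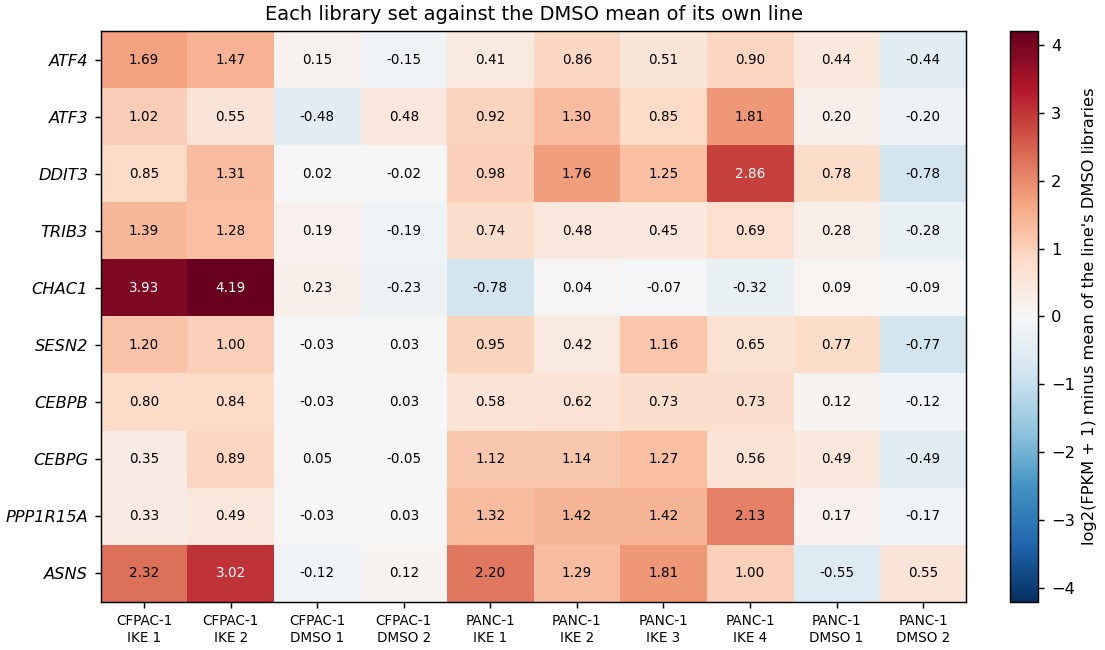
Log2(FPKM + 1) of each gene in each library minus the mean of the DMSO libraries of the same line, with the value in each cell. CHAC1 reads 3.93 and 4.19 in the CFPAC-1 IKE libraries and -0.78 to 0.04 in the 4 PANC-1 IKE libraries, while PPP1R15A reads 0.33 and 0.49 in CFPAC-1 and 1.32 to 2.13 in PANC-1.

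With DMSO alone 3 of the 10 genes were called between the lines, 2 higher and 1 lower in CFPAC-1. Of all tested genes 37.9% were called, 21.1% higher and 16.8% lower. The count among the 10 is thus no larger than the share of tested genes. CHAC1 averaged 3.27 ± 0.94 FPKM in CFPAC-1 DMSO and 16.9 ± 1.53 FPKM in PANC-1 DMSO (SD, n = 2 each), a log2 difference of -2.08 ± 0.35 (limma adjusted p = 0.000939). TRIB3 averaged 37.8 ± 7.23 FPKM in CFPAC-1 DMSO and 10.9 ± 3.23 FPKM in PANC-1 DMSO, a difference of 1.72 ± 0.30 (limma adjusted p = 0.0011). CEBPB averaged 94.1 ± 2.88 FPKM in CFPAC-1 DMSO and 42.4 ± 4.94 FPKM in PANC-1 DMSO, a difference of 1.14 ± 0.22 (limma adjusted p = 0.00191). These libraries also serve as the controls of the IKE effects, so the low CHAC1 level of CFPAC-1 DMSO and its large IKE effect there rest on shared values.

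The other 7 genes did not pass between the DMSO groups. The DMSO libraries of the lines did not overlap for ATF3 (log2 difference -1.10 ± 0.49, limma adjusted p = 0.104) and DDIT3 (-0.95 ± 0.51, limma adjusted p = 0.169), both lower in CFPAC-1. With CHAC1 these were 3 genes not overlapping and lower in CFPAC-1 (33.8% of tested genes), and TRIB3 and CEBPB were the 2 not overlapping and higher (36.8%). Neither count was above the share of tested genes. The remaining differences were -0.59 for ATF4, -0.66 for ASNS, -0.48 for CEBPG, -0.09 for PPP1R15A and 0.08 for SESN2, each with overlapping libraries. Without CFPAC-1 DMSO replicate 2, the higher of the ATF3 values, ATF3 was called lower in CFPAC-1 (-1.57, limma adjusted p = 0.0138).

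Set in order over the 4 groups, the genes fell into a few patterns. ATF4, SESN2 and ASNS were highest in CFPAC-1 IKE, then PANC-1 IKE, then PANC-1 DMSO, and lowest in CFPAC-1 DMSO. For ATF4 the means in that order were 377 ± 39.9 (SD, n = 2), 303 ± 52.1 (n = 4), 197 ± 82.6 (n = 2) and 126 ± 19.0 FPKM (n = 2), and each neighbouring pair of groups overlapped. For SESN2 every neighbouring pair overlapped as well, and for ASNS the 2 IKE groups overlapped and the 2 DMSO groups overlapped, with a gap between them. TRIB3 and CEBPB were ordered by line first: both CFPAC-1 groups were above both PANC-1 groups, and no neighbouring groups overlapped.

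ATF3 and DDIT3 were ordered the other way. Both were highest in PANC-1 IKE (56.9 ± 18.7 and 124 ± 80.4 FPKM, SD, n = 4) and lowest in CFPAC-1 DMSO (10.8 ± 5.32 and 16.2 ± 0.40 FPKM, n = 2), and the PANC-1 DMSO and CFPAC-1 IKE groups between them overlapped. CEBPG and PPP1R15A were also highest in PANC-1 IKE, by a gap, at 33.2 ± 6.71 and 65.0 ± 19.0 FPKM, with CFPAC-1 IKE next at 17.6 ± 4.87 and 26.1 ± 2.11 FPKM. CHAC1 had an order of its own, with CFPAC-1 IKE far above (69.5 ± 9.10 FPKM), the overlapping PANC-1 DMSO and IKE groups in the middle and CFPAC-1 DMSO at the bottom.

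Ratios within a library show how the genes moved relative to ATF4, as a description on the FPKM scale. The CHAC1 level was 15.6% and 21.8% of the ATF4 level in the CFPAC-1 IKE libraries, against 2.83% and 2.32% in the CFPAC-1 DMSO libraries. In PANC-1 it was 3.76%, 5.06%, 5.97% and 3.77% in the IKE libraries, against 7.04% and 11.4% in the DMSO libraries. CHAC1 thus gained on ATF4 with IKE in CFPAC-1 and lay below its DMSO ratio in every PANC-1 IKE library. The TRIB3 level stayed at a similar share of ATF4 within a line: 24.7% and 26.4% in CFPAC-1 IKE and 30.8% and 29.1% in CFPAC-1 DMSO, and 4.44% to 7.40% in PANC-1 IKE and 5.16% and 6.21% in PANC-1 DMSO.

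The PANC-1 libraries varied among themselves in some of the 10 genes more than others. The SD of log2 values within groups was 0.907 for DDIT3, 0.614 for SESN2 and 0.608 for ASNS in PANC-1, against 0.105 for CEBPB and 0.236 for TRIB3. In CFPAC-1 it was 0.232, 0.103 and 0.368 for DDIT3, SESN2 and ASNS, and ATF3 was the most variable gene there (0.531). PANC-1 DMSO replicate 1 was above replicate 2 by 1.56 for DDIT3, 1.54 for SESN2, 0.98 for CEBPG and 0.88 for ATF4 on the log2 scale, but differed by -1.11 for ASNS, where the median over all tested genes was 0.13. So the PANC-1 controls disagreed on ATF4 and several of its partners and targets, and ASNS ran opposite to the other genes.

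The same opposition appeared among the PANC-1 IKE libraries, where the library with the highest DDIT3 level in FPKM had the lowest ASNS level. DDIT3 was 0.383, 1.24, 0.606 and 3.30 times the ASNS level in IKE replicates 1 to 4, against 2.32 and 0.344 times in the DMSO libraries. In CFPAC-1 the ratio was 0.258 and 0.22 in the IKE libraries, against 0.8 and 0.654 in the DMSO libraries. The estimated relative depths of PANC-1 IKE replicates 1 to 4 were 0.876, 0.239, 0.5 and 0.211. By these estimates DDIT3 was highest and ASNS lowest in the shallowest library, and the order was the reverse in the deepest. The DMSO libraries ran the other way, with the higher ratio in the deeper replicate 1 (0.507) and the lower ratio in the shallower replicate 2 (0.328). The 10 most abundant genes held 9.29% of summed FPKM in replicate 1 and 23.1% in replicate 4, and the part of depth or of these abundant genes in the DDIT3 and ASNS values was not tested. Without IKE replicates 2, 3 and 4 the effects, then resting on 1 IKE library, were 0.98 for DDIT3, 2.203 for ASNS, 1.32 for PPP1R15A and -0.78 for CHAC1.

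**Figure D4:**
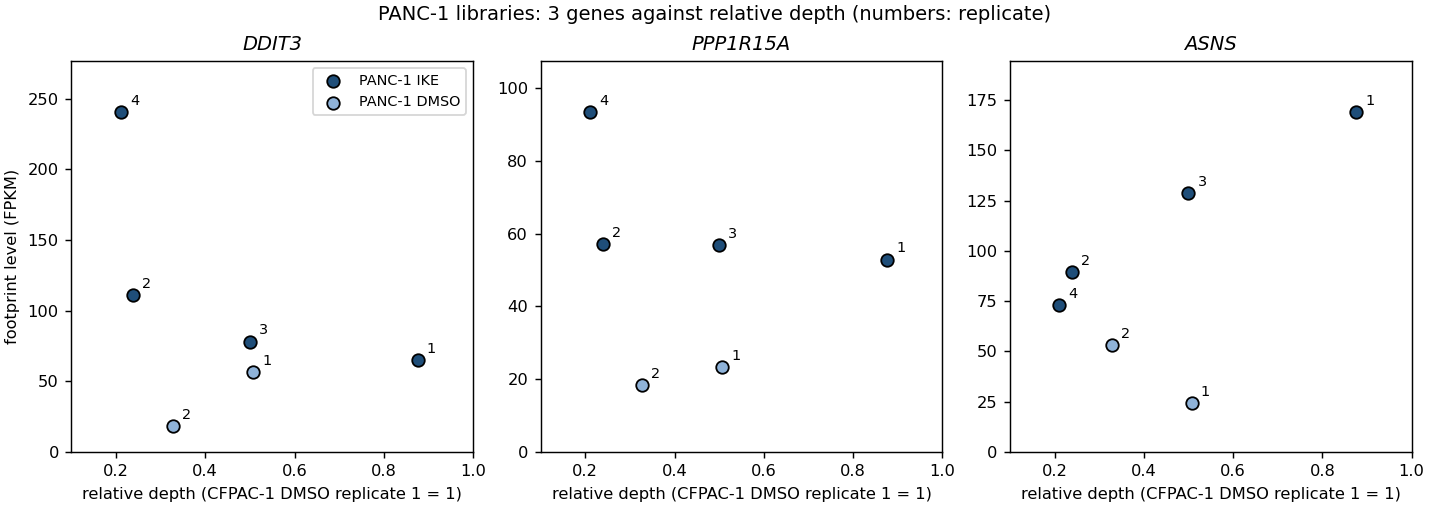
Footprint level (FPKM) of DDIT3, PPP1R15A and ASNS in the 6 PANC-1 libraries against estimated relative depth (CFPAC-1 DMSO replicate 1 set to 1), with replicate numbers. In the IKE libraries DDIT3 runs from 64.8 FPKM in the deepest to 241 FPKM in the shallowest and ASNS from 169 to 72.9 FPKM, while all 4 PPP1R15A values lie above those of the DMSO libraries.

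The gene most like ATF4 over the 10 libraries was another of the 10. For each gene, the mean of its own line's DMSO libraries was taken from log2(FPKM + 1), and Pearson's r with ATF4 was computed across the 10 libraries for the 10702 genes that averaged 5 FPKM or more. The points share libraries, line and depth, and r is given as a description. TRIB3 ranked 1 (r = 0.956), followed by ENSG00000163993 (0.921) and ENSG00000196517 (0.910), 2 genes that carry no name here. CEBPB ranked 9 (0.856), SESN2 38 (0.778), CHAC1 49 (0.765) and ASNS 120 (0.690). DDIT3 ranked 197 (0.640), ATF3 338 (0.570), CEBPG 484 (0.523) and PPP1R15A 1296 (0.351). For CHAC1 the most alike gene was ENSG00000160862 (r = 0.985), ATF4 ranked 105 (0.765), TRIB3 132 (0.746) and PPP1R15A 7595 (-0.26). On this scale CHAC1 read 3.93 and 4.19 in the CFPAC-1 IKE libraries and -0.78 to 0.23 in all others. Its r is thus set mostly by those 2 libraries, where ATF4 was highest as well (1.69 and 1.47).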

How the data were processed

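Ribosome footprints of 10 libraries were deposited by the authors as FPKM, per the file headers, with a row for each of 20289 Ensembl genes. GRCh38, RSEM, STAR, DESeq2, fastp and Bowtie2 2.2.8 are listed, per the submitters' processing notes, without role or order. The strand setting is not given in the sources used here, nor are annotation and length filters. Values of genes that overlap others or have near-identical copies are therefore uncertain. Footprints over 17 nt were kept, per the labels' protocols. The deposited FPKM values are no counts. Of 2225 low genes, 244 (11.0%) gave whole reads in every library within 0.08 reads, against 40.8% in simulated whole reads. Reads were therefore not recovered, absolute depth is unknown and the count test planned for counts did not apply. Relative depths rest on the same steps and are estimates.

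Genes averaging 1 FPKM or more (13125) were tested with limma 3.58.1 in R 4.3.3 on log2(FPKM + 1), which understates changes of low genes. All 4 groups entered 1 model with 1 variance weight per line (6 residual degrees of freedom), a trend of variance on level and adjustment by Benjamini-Hochberg. Genes were called at an adjusted p under 0.05. The fit was tested on simulated data, where it called more unchanged genes in CFPAC-1 than the line fitted on its own, so both are given. With no gene changed it called 4 genes, against 0. With 200 genes changed 2-fold, 4-fold or 8-fold, 46 of 168, 57 of 254 and 63 of 263 calls were false. For CFPAC-1 fitted on its own, on the same 13125 genes, these were 6 of 52, 12 of 193 and 9 of 206. The fit of CFPAC-1 with its own set of tested genes was not simulated. In CFPAC-1 the threshold of the weighted fit thus let through more false calls than its nominal share. So did the line on its own for genes changed 2-fold and 4-fold. In PANC-1 the weighted fit made 0 calls with genes changed 2-fold. With 4-fold and 8-fold changes 12 of 139 and 24 of 211 of its calls there were false, also above the nominal share. Alternatives were other pseudocounts, filters, weights and scalings, a replicate block, each line on its own and libraries left out. Nothing in the labels ties same-numbered libraries, so numbers were not taken as pairs. Correlations of their deviations from the group means were 0.0495 in CFPAC-1 and -0.169 and -0.163 in PANC-1. With 2 libraries per group the CFPAC-1 value is the same for both replicates by construction. These few libraries cannot exclude pairing.

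The named genes are the 10 members and, for likeness to ATF4 and CHAC1, the highest of the 5 genes with the largest r. The members, the model and the lists were chosen with earlier results of these data known. The reference gene table matched 0 of the Ensembl IDs, so only the members could be named, and 11 lists of related pathways (154 symbols) and the cell type markers, the check of the lines included, were not analysed here.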

Additional observations from a re-analysis of the deposited data

Results flagged for a closer look

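PPP1R15A in PANC-1 IKE replicate 4 was at 93.4 FPKM, apart from the other 3 IKE libraries at 52.8 to 57 FPKM. Its gap to the nearest of them was 0.897 of the range of the 4 libraries, above Dixon's 95% critical value. All 10 genes were checked this way in this group of 4. Chance gives about 1 in 20 for each gene checked, so a flag somewhere among the 10 is likelier than that. Without that library the PPP1R15A log2 fold change in PANC-1 was 1.39.

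The log2 effect of IKE on CHAC1 was 4.34 larger in CFPAC-1 than in PANC-1 (limma adjusted p = 0.00706), by a test of the difference itself. Both CFPAC-1 IKE libraries were above both CFPAC-1 DMSO libraries, whereas no PANC-1 IKE library was above the higher PANC-1 DMSO library. Dose differed between the lines, 10 and 1 µM, and its part cannot be told apart from that of the line.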

How the results depend on the processing

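Of the values of the 10 genes under the alternatives, 873 kept direction and side of the threshold, 35 lost a call, 2 gained one and 10 turned direction without being called. For CFPAC-1, IKE against DMSO, the 46 calls among all genes (5 of the 10) became 77 with a pseudocount of 5, 1 (1 of the 10) with no weights, 16 (3) with the line fitted on its own, 0 (0) with that fit on the shared genes, 21 (3) without PANC-1 IKE replicates 2 and 4, 7 (1) without replicates 2, 3 and 4, and 16 to 44 (3 to 6) with a library left out. The fit on shared genes and the removal of replicates 2, 3 and 4 were chosen after seeing the data. For PANC-1 the 0 calls became 1 with no filter, 2 with no weights, 2 with the line on its own, 1 on the shared genes, 1 without IKE replicates 2 and 4, and 0 to 1 with a library left out, and 0 of these were among the 10. For the difference, 3 calls (1 of the 10) became 0 of the 10 without IKE replicates 2 and 4, 0 (0) without replicates 2, 3 and 4, and 0 to 6 (0 to 1) with a library left out. Between the DMSO groups, 4970 calls (3 of the 10) became 2868 to 5578 (3 to 4) with a library left out, and quantile normalization gave a median over all genes of -0.103, against 0.028 before. With the replicate block, on replicates 1 and 2 alone, calls were 9 (2) in CFPAC-1, 0 (0) for the difference and 2304 (1) between the DMSO groups. The labels do not say that the numbers pair the libraries. Directions turned between the DMSO groups for SESN2 (-0.097 with quantile normalization, -0.40 with the block, -0.69 to 0.85 with a library left out), CEBPG (-0.97 to 0.011) and PPP1R15A (-0.26 to 0.081). For the difference they turned in ATF3 (-0.91 to 0.041), SESN2 (-0.46 to 1.08), CEBPG (-0.89 to 0.092) and DDIT3 (-1.42 to 0.15 with a library left out, 0.092 without PANC-1 IKE replicates 2, 3 and 4). The cause was not tested. Estimated depth is lowest in PANC-1, and no counting error can be given for FPKM.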
